A study of Mus musculus with 36 samples.

Results

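Embryos 15 to 18 were set against KSOM(aa) embryos 1 to 8 to ask how the transcriptome of blastocysts grown in commercial human-assisted-reproduction media differed from that of blastocysts grown in the mouse reference medium. The members were chosen by embryo number and medium alone: 4 embryos whose half-embryos a were cultured in GM501 cult and whose half-embryos b were cultured in SAGE 1-step, and 8 embryos whose half-embryos a and b were both cultured in KSOM(aa). These are 24 of the 36 half-embryos (12 of the 18 embryos) of the series, and embryos 9 to 14 were not analysed here. Sister half-embryos come from the same zygote, so their log2 signals were averaged to 1 value per embryo, and n was 4 embryos in commercial media and 8 in KSOM(aa). Each commercial-media embryo therefore carries 1 half-embryo of each medium.

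All half-embryos, those in KSOM(aa) included, were zygotes of B6C3F1 x CD1 matings after PMSG and hCG stimulation and first developed in KSOM(aa) until they had 2 cells. The blastomeres were then separated and grown apart for 72 h, to about 96 h in culture, Theiler stage 5. RNA of each single blastocyst was hybridised to 1 Affymetrix mouse transcriptome array (MTA 1.0). The labels give about 40 to 50 cells. In stained twin blastocysts, however, the paper counted fewer cells in KSOM(aa) than in the commercial media. The part of cell number in the differences below was not tested. A half-embryo grown without its sister is a blastocyst built from 1 of 2 blastomeres, and no intact embryo entered either group.

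The mouse blastocyst consists of trophectoderm, the outer transporting epithelium that pumps fluid into the blastocoel and later makes the placenta, and of an inner cell mass that divides into epiblast and primitive endoderm. Culture media for preimplantation embryos differ in their ions, energy substrates, amino acids, metals and protein supplement, which embryos take up through transporters of the trophectoderm. Slc39a4 encodes ZIP4, a zinc importer at the cell surface, Wls encodes the carrier that brings Wnt ligands to the cell surface, and Xbp1 encodes a factor that switches on chaperone and degradation genes when unfolded proteins build up in the endoplasmic reticulum.

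The arrays had the marker profile of blastocysts. Over the 12 embryos Krt8 and Krt18 (trophectoderm keratins) lay between 16.4 and 18.3 on the log2 scale, Cdx2 between 12.0 and 12.7, Nanog between 12.1 and 15.2 and Gata6 between 10.9 and 12.4, whereas Cyp19a1, Fshr, Amh, Foxl2 and Ptx3 of cumulus and granulosa cells did not exceed 4.44. Sox17, a primitive endoderm factor, lay near the array background in both groups. Background, taken as the 90th percentile of 1723 odorant and vomeronasal receptors, was 4.54 to 4.74 in 7 of the 8 commercial-media arrays and 4.74 to 5.17 in the KSOM(aa) arrays. Half-embryo 16b (SAGE 1-step) stood apart: its background was 5.30, its mean correlation with other embryos of its group was 0.947 against 0.972 to 0.981 for the others, and Nanog was 10.61 in it and 14.44 in its sister 16a. The scan names in the file header place all commercial-media arrays in another set of arrays than all KSOM(aa) arrays, so the effect of the medium and that of the set of arrays cannot be told apart. Xist was high in 2 of the 4 commercial-media embryos and in 2 of the 8 KSOM(aa) embryos. Because of its background, results are also given with 16b left out, embryo 16 then being represented by 16a alone.

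Of 40160 transcript clusters with a gene symbol (the probe groups of the array), 295 differed between the commercial media and KSOM(aa) at an adjusted p under 0.05 (limma, Benjamini-Hochberg), which is 0.735% of those tested. Among them 157 were higher (0.391%) and 138 were lower (0.344%) in the commercial media, and at an unadjusted p under 0.05 there were 7320 (18.2%). Of the 138 lower ones 44 did not exceed background in enough arrays to count as detected, and of the 157 higher ones 2. Of the 295, 266 had embryo values that did not overlap between the groups, against 2.86% of all transcript clusters (0.777% higher and 2.09% lower). With 16b left out the count was 3690 (9.19%), and 293 of the 295 were among them with the same sign. Of the 3690, 918 were higher (2.29%) and 2772 lower (6.90%), and at an unadjusted p under 0.05 there were 13288 (33.1%). Of the 2772 lower ones 1919 did not exceed background in enough arrays to count as detected, and among the 918 higher ones the same held for 7. The lower background of the commercial-media arrays moved with these dim transcript clusters, and its part in them was not tested. The count also rested on single embryos: it was 15 without embryo 15, 22 without embryo 17, 59 without embryo 18 and 46 without KSOM(aa) embryo 6, but 1454 without embryo 16, and 12 of the 295 passed whichever embryo was left out. In these bulk samples fewer cells of a type and less RNA per cell cannot be told apart.

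After predicted genes, receptors and small RNA genes were set aside, 114 detected transcript clusters with 1 gene symbol remained, 76 higher and 38 lower. The largest rises were those of Wls, Adgrl2, Ireb2, Fndc3c1, Dse, Arhgap19, Supt16, Mme, Tmx3, Cpd, Usp31, Pros1, Idh1, Senp2 and Atr, and the largest falls those of Slc39a4, Slc19a3, Rab20, Slc44a4, Dkkl1, Trp53i11, Ift20, Gch1, Slc34a2, Khdc3, Ubxn8, Pdrg1, Ifi30, Creg1 and Elf3. The rises ranged from 1.29 to 2.04 and the falls from -2.41 to -0.99 on the log2 scale. All 30 had the same sign in GM501 and in SAGE 1-step and passed with 16b left out. In 10 of the 15 rises and all 15 falls the embryo values of the groups did not overlap, which describes genes selected for their difference and supports nothing further.

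**Figure D1:**
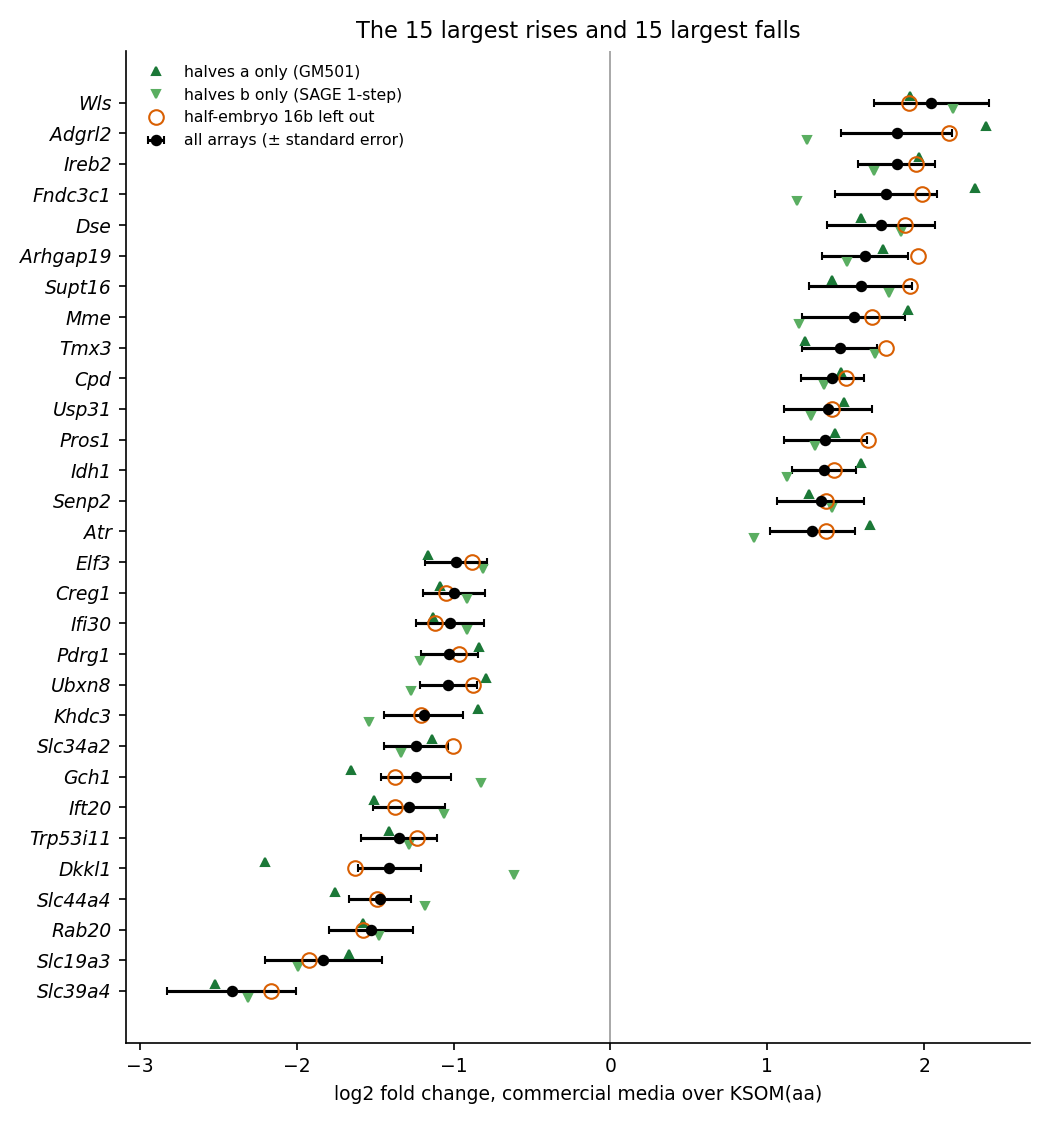
Log2 fold changes (x axis) of the 15 largest rises and 15 largest falls, 1 gene per row, with standard errors, for all arrays (black), half-embryos a in GM501 (dark triangles), half-embryos b in SAGE 1-step (light triangles) and all arrays but 16b (open circles). Triangles are differences from KSOM(aa) half-embryos of the same letter. Each gene keeps its side of 0 in all 4 estimates, from Wls at 2.04 to Slc39a4 at -2.41.

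Slc39a4 (chr15:76612383-76616852, minus strand, mm10) was the most strongly reduced named gene. Its log2 signals were 9.23, 9.10, 10.22 and 9.99 in embryos 15, 16, 17 and 18, against a lowest, median and highest of 10.66, 12.12 and 13.06 in KSOM(aa) embryos. All commercial-media embryos lay below all KSOM(aa) embryos, and embryo 8 was the lowest in KSOM(aa). The means were 9.64 ± 0.56 (SD, n = 4) in commercial media and 12.05 ± 0.83 (SD, n = 8) in KSOM(aa), a difference of -2.41 ± 0.41 (SE), or 5.33-fold lower (limma adjusted p = 0.0292). The call held in 8 of 12 fits that left out 1 embryo and was lost without embryo 6, 15, 17 or 18 (adjusted p = 0.0526, 0.100, 0.0787 and 0.0569).

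No other zinc gene passed. Of 29 measured genes of zinc transport and the metallothioneins, 0 were higher and 1, Slc39a4, was lower, and their median difference was -0.08 beside -0.09 over all transcript clusters. Slc30a5, which loads zinc into the secretory pathway, had 9.45, 9.49, 9.97 and 9.46 in embryos 15 to 18, against 7.73, 9.08 and 9.16 (lowest, median, highest) in KSOM(aa). These groups did not overlap, yet the difference of 0.80 ± 0.26 did not pass (adjusted p = 0.145) until 16b was left out (1.05, adjusted p = 0.042).

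Wls (chr3:159839695-159938664, plus strand) rose the most of the genes named by rule. Its signals were 11.40, 11.29, 11.03 and 10.38 in embryos 15 to 18, against 7.96, 8.87 and 9.91 (lowest, median, highest) in KSOM(aa). The lowest commercial-media embryo, 18, was above the highest KSOM(aa) embryo. The difference was 2.04 ± 0.37 (SE), 4.13-fold higher (limma adjusted p = 0.0308), and it held in 7 of 12 fits that left out 1 embryo. It was lost without embryo 6, 7, 15, 17 or 18 (adjusted p up to 0.109). Of 40 measured genes of Wnt secretion and signalling, Wls was the 1 that was higher and 0 were lower. Apc, the scaffold of the beta-catenin destruction complex, had a difference of 0.78 (adjusted p = 0.0574) and Lrp6, a Wnt co-receptor, one of 0.67 (adjusted p = 0.131), and with 16b left out both passed (0.77 and 0.78, adjusted p = 0.026 and 0.0338). The list then had 4 higher genes, the other being Ctnnb1, beta-catenin itself (0.63, adjusted p = 0.0421), and 1 lower, the ligand gene Wnt3 (-0.26, adjusted p = 0.0241), which did not count as detected (means of 4.04 in commercial media and 4.22 in KSOM(aa) over all arrays). Over all transcript clusters 2.29% were higher and 6.9% lower with 16b left out. Dkkl1, a secreted protein related in sequence to the Dickkopf Wnt inhibitors, was not on that list. It had 10.38, 10.44, 10.32 and 10.35 in embryos 15 to 18, against 11.05, 11.76 and 12.28 (lowest, median, highest) in KSOM(aa), a fall of -1.41 ± 0.20 (adjusted p = 0.0145).

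Xbp1 (chr11:5520641-5525993, plus strand) had 10.82, 10.23, 10.95 and 10.87 in embryos 15 to 18, against 11.31, 11.66 and 12.13 (lowest, median, highest) in KSOM(aa). Embryo 16 was the lowest and the groups did not overlap. The means were 10.71 ± 0.33 in commercial media and 11.68 ± 0.23 in KSOM(aa) (SD), a fall of -0.97 ± 0.17 (limma adjusted p = 0.033) that held in 5 of 12 fits without 1 embryo, those without embryo 2, 4, 5, 7 or 16 (adjusted p up to 0.100 in the others). Xbp1 was the 1 of 26 genes of endoplasmic reticulum folding that was lower, and 0 were higher (median -0.11). Dnajb9, a co-chaperone and a known target of the spliced XBP1 factor, had 9.37, 10.62, 11.62 and 10.02 in embryos 15 to 18, against 11.14, 11.52 and 12.29 in KSOM(aa). Embryo 17 lay inside the KSOM(aa) range, and the difference of -1.15 ± 0.33 did not pass (adjusted p = 0.114). Hspa5, the main chaperone of that compartment, had a difference of -0.05 (adjusted p = 0.907), and Herpud1, which acts in degradation of misfolded proteins, one of -0.22 (adjusted p = 0.738). Of 15 heat shock genes, 0 passed in either direction (median -0.07).

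**Figure D2:**
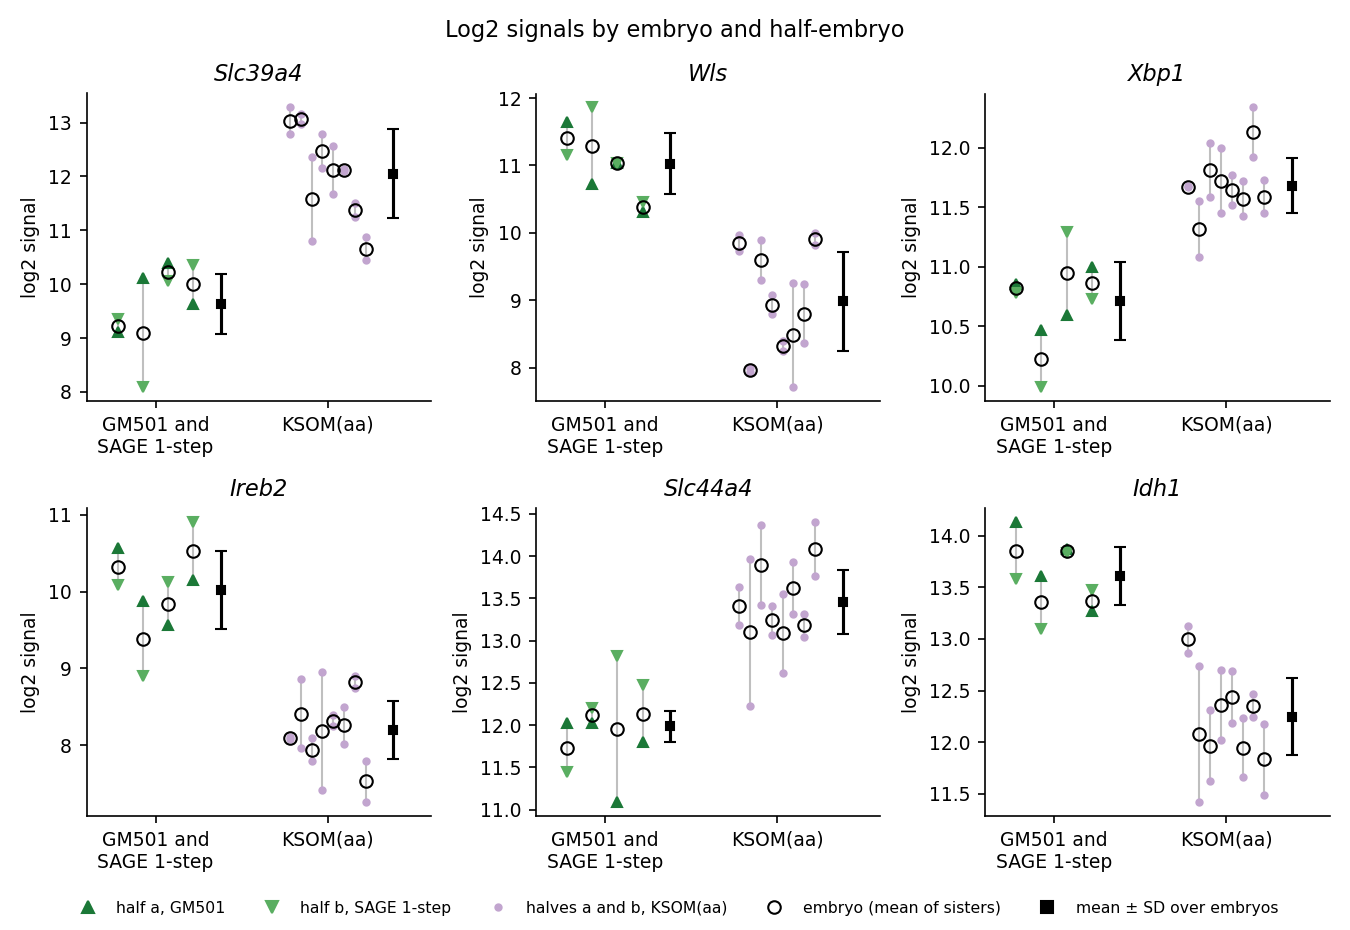
Log2 signals (y axes) of 6 genes in embryos 15 to 18 (left in each panel) and KSOM(aa) embryos 1 to 8 (right). Small symbols are half-embryos, open circles are embryo means and squares with bars are the mean ± SD over embryos. Open circles of the groups do not overlap in any panel, and the low triangle of Slc39a4 at 8.09 is half-embryo 16b.

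Of 15 measured genes of iron and copper handling 2 were higher and 0 lower, beside 0.391% and 0.344% of all transcript clusters. Their median difference was -0.11, beside -0.09 over all. The 2 higher genes belong to iron uptake and its control, in which iron regulatory proteins bind messenger RNAs of the transferrin receptor and of ferritin. Ireb2 (chr9:54863755-54912534), which encodes iron regulatory protein 2, had 10.32, 9.38, 9.84 and 10.53 in embryos 15 to 18, against 7.53, 8.22 and 8.82 (lowest, median, highest) in KSOM(aa). The groups were apart by more than the spread within either, with means of 10.02 ± 0.51 in commercial media and 8.20 ± 0.37 in KSOM(aa) (SD), and the difference was 1.82 ± 0.25, 3.54-fold (limma adjusted p = 0.0104). It held in 11 of 12 fits without 1 embryo and was lost without embryo 15 (adjusted p = 0.0615). Tfrc, the transferrin receptor that takes up iron, had 8.05, 6.67, 8.04 and 7.20 in embryos 15 to 18, against 5.72, 6.17 and 6.85 in KSOM(aa). Embryo 16 overlapped the KSOM(aa) range, and the rise of 1.28 ± 0.26 (adjusted p = 0.0451) held in 2 of 12 fits without 1 embryo. Aco1, which encodes the other iron regulatory protein, had a difference of 0.53 (adjusted p = 0.27; 0.83 and 0.0244 with 16b left out). A transcript cluster on chromosome 4 that carries the symbol Ftl1, ferritin light chain, beside other symbols had 14.79, 14.11, 14.57 and 14.78 in embryos 15 to 18, against 15.05, 15.20 and 16.16 in KSOM(aa). Its values did not overlap, but its difference of -0.74 did not pass (adjusted p = 0.0917), and copies of this gene could share its probes.

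Beside Slc39a4, 3 other solute carrier genes were among the 15 largest falls. Slc44a4, a choline-like and thiamine pyrophosphate transporter, had 11.73, 12.12, 11.96 and 12.13 in embryos 15 to 18, against 13.09, 13.32 and 14.09 (lowest, median, highest) in KSOM(aa). Embryos 15 to 18 differed little among themselves (SD 0.19) and lay below all KSOM(aa) embryos, a fall of -1.47 ± 0.20 (adjusted p = 0.0104) that, like that of Ireb2, was lost only without embryo 15 (adjusted p = 0.0615). Slc19a3, a thiamine carrier, was at 6.79, 6.58, 6.83 and 6.18 in embryos 15 to 18, against 7.25, 8.73 and 9.23 in KSOM(aa) (-1.83 ± 0.37, adjusted p = 0.0456). Slc34a2, a sodium-coupled phosphate importer of epithelia, was at 13.05, 12.66, 13.06 and 13.41, against 13.61, 14.34 and 14.80 in KSOM(aa) (-1.24 ± 0.20, adjusted p = 0.0269). It was the 1 of 31 genes of calcium, phosphate and acid-base transport that was lower, and 0 were higher. At an unadjusted p under 0.05, 5 of the 31 were higher and 8 lower, against 18.2% of all transcript clusters in either direction. With 16b left out 4 were higher and 4 lower, beside 2.29% and 6.9% of all transcript clusters. Trpv5, an epithelial calcium channel, and Alppl2, an embryonic alkaline phosphatase, had differences of -1.09 and -1.67 without passing (adjusted p = 0.129 and 0.101), and Car4, a membrane carbonic anhydrase, had one of 1.75 (adjusted p = 0.106; 1.89 and 0.0317 with 16b left out).

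Of 27 amino acid transporters 1 was higher and 0 were lower. That was Slc1a3, a glutamate and aspartate carrier, at 6.29, 5.86, 6.16 and 6.03 in embryos 15 to 18, against 4.95, 5.43 and 5.71 in KSOM(aa) (0.68 ± 0.14, adjusted p = 0.0451). In KSOM(aa) Slc1a3 lay near the array background. Slc38a2, a carrier of small neutral amino acids that cells raise when amino acids are scarce, had 11.48, 9.04, 11.15 and 11.77, against 8.31, 9.18 and 10.38 in KSOM(aa). Embryos 15, 17 and 18 exceeded every KSOM(aa) embryo, and embryo 16 did not. The difference of 1.56 ± 0.47 did not pass with all arrays (adjusted p = 0.119) and did with 16b left out (1.95, adjusted p = 0.0133). Of 30 genes that respond to a lack of amino acids, 0 passed in either direction. An unadjusted p under 0.05 was found in 2, against 18.2% of all transcript clusters.

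Among enzyme genes of metabolism, Idh1 rose and Gch1 fell. Idh1, the cytosolic NADP-dependent isocitrate dehydrogenase, was at 13.86, 13.36, 13.85 and 13.37 in embryos 15 to 18, against 11.84, 12.22 and 12.99 (lowest, median, highest) in KSOM(aa). All commercial-media embryos were above all KSOM(aa) embryos, a rise of 1.36 ± 0.21 (limma adjusted p = 0.021) that was lost without embryo 15 or 17 (adjusted p = 0.0794 and 0.0845). Gch1, the entry enzyme of tetrahydrobiopterin synthesis, fell by 1.24 ± 0.22 (adjusted p = 0.0308), at 10.92, 10.87, 11.26 and 10.83 in embryos 15 to 18, against 11.48, 12.29 and 12.62 in KSOM(aa). Of 26 genes of fatty acid synthesis and lipid storage 0 passed, and their median difference was -0.04. At an unadjusted p under 0.05 there were 10, 4 higher and 6 lower, against 18.2% of all transcript clusters in either direction. Acaca and Fasn, which make malonyl-CoA and fatty acids from it, had differences of 1.19 (adjusted p = 0.0673) and 1.24 (adjusted p = 0.0971) and passed with 16b left out (1.42 and 1.50, adjusted p = 0.0125 and 0.0169). In that fit 3 of the 26 genes were higher and 2 lower, beside 2.29% and 6.9% of all transcript clusters. Of 22 glucose uptake and glycolysis genes, 26 cholesterol genes, 27 respiratory chain genes and 26 oxidative stress genes, 0 passed in either direction. Their medians were 0.07, 0.14, -0.14 and -0.19. At an unadjusted p under 0.05, 2 glucose genes were higher and 1 lower, and 5 cholesterol genes were higher and 0 lower. In the same way 3 respiratory chain and 7 oxidative stress genes were lower and 0 higher, against 18.2% of all in either direction. With 16b left out 1 glucose and 3 cholesterol genes were higher, and 1 respiratory chain and 3 oxidative stress genes were lower.

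Xpo1, the main nuclear export receptor for proteins, and Polh, the translesion DNA polymerase eta, were chosen after their values were seen: 12 of the 295 calls passed in all 12 fits that left out 1 embryo, and these 2 were the ones among them that were not predicted, receptor or small RNA genes. Xpo1 (chr11:23256041-23298249) was at 12.47, 11.91, 12.23 and 12.31 in embryos 15 to 18, against 10.95, 11.06 and 11.29 (lowest, median, highest) in KSOM(aa), a rise of 1.15 ± 0.13 (adjusted p = 0.00442). Polh (chr17:46171993-46202625) was at 6.31, 5.68, 5.97 and 6.16, against 4.79, 4.95 and 5.15 in KSOM(aa), a rise of 1.08 ± 0.11 (adjusted p = 0.00397). Neither gene overlapped between the groups. In KSOM(aa) Polh lay near the array background, and it was at 7.45, 5.93, 6.25 and 6.86 in the half-embryos in GM501 against 5.18, 5.43, 5.69 and 5.46 in their sisters in SAGE 1-step.

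Cdkn1b, the cell cycle inhibitor p27, was the 1 of 36 replication and cell cycle genes that was higher, and 0 were lower. It was at 6.12, 6.14, 6.21 and 5.97 in embryos 15 to 18, against 5.18, 5.38 and 5.62 in KSOM(aa), without overlap (0.72 ± 0.10, adjusted p = 0.0129; 0.0615 and 0.0656 without embryo 15 or 17). In KSOM(aa) Cdkn1b lay just over the array background. Atr, the kinase of the replication checkpoint, was at 9.09, 8.61, 8.90 and 9.03, against 6.76, 7.57 and 8.62 in KSOM(aa). Embryo 16 and KSOM(aa) embryo 7 met at the edge of the ranges, and Atr rose by 1.29 ± 0.27 (adjusted p = 0.049, held in 3 of 12 fits without 1 embryo). Supt16, a subunit of the histone chaperone FACT, was at 12.26, 10.61, 11.74 and 12.15 in embryos 15 to 18, against 9.38, 10.09 and 10.70 in KSOM(aa) (1.59 ± 0.33, adjusted p = 0.0459, held in 2 of 12). Mcm2, a subunit of the replicative helicase, had a difference of -0.12 (adjusted p = 0.808). Cpd, a membrane carboxypeptidase, was at 11.62, 10.91, 11.87 and 11.30, against 9.53, 10.04 and 10.38 in KSOM(aa), and its rise of 1.41 ± 0.20 (adjusted p = 0.0129) held in 10 of 12.

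Adgrl2, an adhesion receptor, rose by 1.82 (adjusted p = 0.0429), Dse, an epimerase that makes dermatan sulfate, by 1.72 (adjusted p = 0.0451), Mme, the membrane peptidase neprilysin, by 1.55 (adjusted p = 0.0499) and Pros1, protein S, by 1.37 (adjusted p = 0.0429). Arhgap19, a GTPase-activating protein, rose by 1.62 (adjusted p = 0.0292), and Tmx3, a disulfide isomerase of the endoplasmic reticulum, by 1.46 (adjusted p = 0.0267). The deubiquitinase gene Usp31 and the SUMO protease gene Senp2 rose by 1.39 and 1.34 (adjusted p = 0.0459 and 0.0469). Of these, Adgrl2, Dse, Pros1, Arhgap19, Tmx3 and Usp31 had embryo values above every KSOM(aa) embryo, whereas in Mme and Senp2 embryo 16 lay within the KSOM(aa) range.

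Rab20, an endosomal GTPase, fell by 1.53 ± 0.27 (adjusted p = 0.0298), at 9.42, 9.54, 9.83 and 9.82 in embryos 15 to 18 and 10.21, 11.26 and 11.81 (lowest, median, highest) in KSOM(aa). H2-D1, a class I antigen gene whose transcript cluster also carries the symbol H2-L, was the 1 of 28 interferon and innate immunity genes that was lower. It was at 8.72, 8.84, 8.41 and 8.61 in embryos 15 to 18, against 9.43, 9.63 and 9.97 in KSOM(aa) (-1.03 ± 0.16, adjusted p = 0.021, lost without embryo 15, 17 or 18). Ifi30, a lysosomal thiol reductase of antigen processing, fell by 1.02 (adjusted p = 0.0493). Of 25 cytoskeleton genes 2 were lower, with differences of -0.53 (adjusted p = 0.0375) in Capns1, the small calpain subunit, and -0.89 (adjusted p = 0.0454) in Efhd2, an actin-binding calcium sensor. Ift20, a Golgi and ciliary transport protein, fell by 1.28 (adjusted p = 0.0302). Khdc3, a component of the subcortical maternal complex and the 1 of 20 maternal oocyte transcripts that was lower, was at 12.95, 12.64, 12.67 and 12.97 in embryos 15 to 18, against 13.23, 13.97 and 14.79 in KSOM(aa) (-1.19 ± 0.25, adjusted p = 0.0493). Of 25 lysosome and autophagy genes 0 passed, and 4 were lower at an unadjusted p under 0.05, against 18.2% of all in either direction.

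None of the 21 epiblast, 19 primitive endoderm, 26 trophectoderm and 20 blastocoel genes measured passed with all arrays (limma, counts of 0 in both directions; the smallest adjusted p was 0.172, 0.0961, 0.0673 and 0.102). Their median differences were -0.10, 0.26, -0.23 and -0.09, beside -0.09 over all transcript clusters. At an unadjusted p under 0.05, 1 epiblast and 5 primitive endoderm genes were higher and 0 lower, 9 trophectoderm genes were lower and 1 higher, and 4 blastocoel genes were lower and 0 higher, against 18.2% of all in either direction. Nanog, the epiblast factor, was at 13.03, 12.53, 13.53 and 13.47 in embryos 15 to 18, against 12.11, 13.38 and 15.24 in KSOM(aa), so the groups overlapped entirely (-0.37 ± 0.42, adjusted p = 0.639). Pou5f1 and Cdx2 had differences of -0.23 ± 0.23 and -0.06 ± 0.15 (adjusted p = 0.577 and 0.852). Pdgfra, the primitive endoderm receptor, was at 9.05, 7.31, 9.53 and 8.73, against 6.83, 7.35 and 8.55 in KSOM(aa). Embryo 16 was at the KSOM(aa) median, and embryos 15, 17 and 18 were above the highest KSOM(aa) value, and the difference of 1.26 (adjusted p = 0.121) passed with 16b left out (1.54, adjusted p = 0.0169). Lamb1, a laminin chain of the endoderm's basement membrane, did likewise (1.46 and 0.153 with all arrays, 1.63 and 0.0355 without 16b).

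Of the trophectoderm genes Krt18 and Eomes had the smallest adjusted p. Krt18 was at 17.92, 17.57, 17.86 and 17.82 in embryos 15 to 18, against 17.96, 18.11 and 18.28 in KSOM(aa), which did not overlap, with a difference of -0.32 ± 0.07 (adjusted p = 0.0673). Eomes, a trophoblast factor, was at 13.82, 13.38, 13.98 and 13.76, against 13.94, 14.55 and 15.28 in KSOM(aa) (-0.82 ± 0.21, adjusted p = 0.0816). With 16b left out both passed (-0.23 and -0.81, adjusted p = 0.0351 and 0.0339). In that fit 5 of 26 trophectoderm genes were lower and 0 higher (the others being Krt7, Dppa1 and Tfap2a), and 2 of 19 primitive endoderm genes were higher and 0 lower. Over all transcript clusters 6.9% were lower and 2.29% higher in the same fit. Elf3, an epithelial transcription factor that was not on the list, fell with all arrays (-0.99 ± 0.20, adjusted p = 0.0451).

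Over the 37 lists, 12 of 842 distinct genes passed, 5 higher and 7 lower, beside 0.735% of all transcript clusters. With 16b left out 77 of the 842 passed, 41 higher and 36 lower, beside 9.19% of all transcript clusters (2.29% higher and 6.9% lower). Among the 77 were 4 of 19 Hippo pathway genes that were higher (Yap1, Lats1, Sav1 and Amot, with differences of 0.49, 0.67, 0.55 and 0.76 with all arrays). Of 60 ribosomal protein genes and 11 reference genes 0 passed (2 and 1 at an unadjusted p under 0.05, against 18.2% of all), Actb and Gapdh having differences of 0.02 ± 0.11 and 0.01 ± 0.09. Hprt was at 14.94, 14.27, 14.94 and 14.86 in embryos 15 to 18, against 15.02, 15.29 and 15.79 in KSOM(aa) (-0.61 ± 0.17, adjusted p = 0.0976), and the low value of embryo 16 came from 16b at 13.51.

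**Figure D3:**
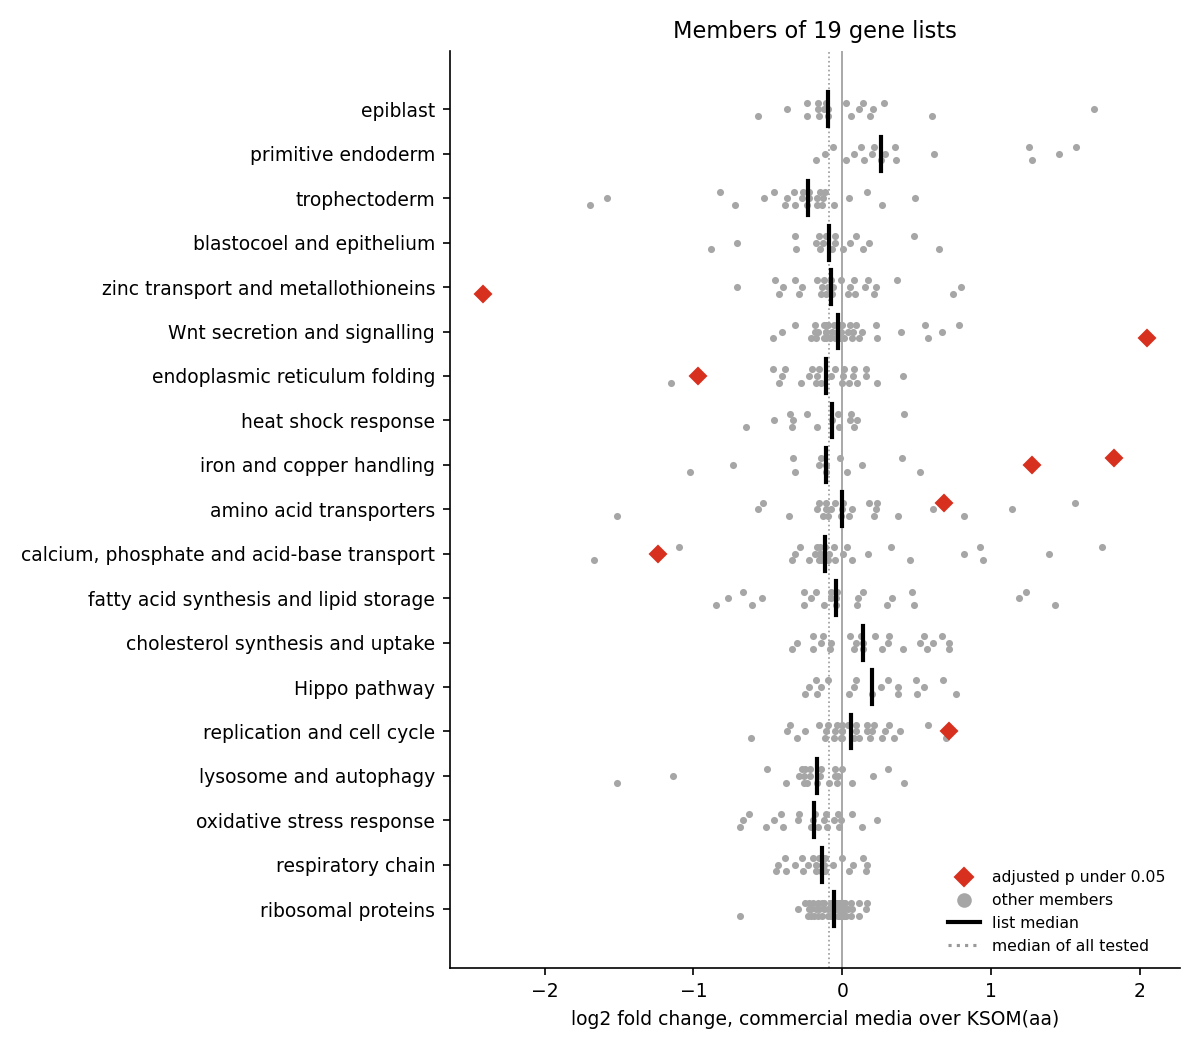
Log2 fold changes (x axis) of the measured members of 19 gene lists (rows). Diamonds passed the threshold, grey points did not, black bars are list medians and the dotted line is the median over all transcript clusters, -0.09. Slc39a4 at -2.41 and Wls at 2.04 stand apart from the other members of their lists.

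By class of transcript cluster, calls were most frequent among transfer RNAs (4 of 16) and microRNA precursors. Of 1714 tested, 44 were higher and 8 lower (3.03%), and 20 of the higher ones lay inside Sfmbt2, an imprinted gene on chromosome 2 (10370451-10595253, plus strand) whose intron carries a large cluster of repeated microRNA genes. The array measures precursors and their host transcripts, not mature microRNAs. Mature sequences, credited to RefSeq (GRCm38.p6), are shown for the called, detected precursors that the sequence table holds, since those are the small RNAs these precursors could give. The seed (bases 2 to 8) is in capitals, and all 8 sequences have different seeds.
mmu-miR-763: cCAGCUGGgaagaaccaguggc
mmu-miR-6399: uUGCAAUGaugguauucugagg
mmu-miR-6352: uUUGGGAAaaggaccccagcuc
mmu-miR-139-5p: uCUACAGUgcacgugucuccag
mmu-miR-139-3p: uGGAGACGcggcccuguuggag
mmu-miR-7004-5p: uUCCGUGGaugaggccugugccgu
mmu-miR-7004-3p: cCCACUCCcuccuucacgcag
mmu-miR-692: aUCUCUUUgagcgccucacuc

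The precursor of miR-763 (chr10:120447991-120448110) was at 7.31, 7.66, 8.79 and 7.69 in embryos 15 to 18, against 4.91, 5.75 and 6.75 (lowest, median, highest) in KSOM(aa). It did not overlap between the groups, and its rise was 2.07 ± 0.36 (adjusted p = 0.0298). That of miR-6399 was at 6.82, 3.85, 6.71 and 5.18, against 3.33, 3.50 and 3.77 in KSOM(aa). It was above background in 5 of 8 commercial-media arrays, neither of embryo 16, and in 0 of 16 KSOM(aa) arrays, so that its level in KSOM(aa) is only bounded. With each KSOM(aa) array set to its background it was at least 1.67-fold higher in commercial media (adjusted p = 0.0429 on the signals as deposited, held in 2 of 12 fits without 1 embryo). The precursor of miR-139 was above background in all 24 arrays, did not overlap between the groups and rose by 0.82 (adjusted p = 0.0292, lost without embryo 6, 15 or 17). Those of miR-6352 and miR-7004 passed (adjusted p = 0.0451 and 0.0493) but overlapped between the groups and were above background in 1 and 3 of the 16 KSOM(aa) arrays and in 6 and 8 of the 8 in commercial media, and each call held in 2 of 12 fits. Mir692-1 was the bright exception, at 13.06, 12.71, 12.65 and 13.19 in embryos 15 to 18, against 13.70, 13.91 and 14.32 in KSOM(aa) (-1.05 ± 0.15, adjusted p = 0.0129). Other copies of this precursor share a transcript cluster with ferritin light chain symbols, as in the Ftl1 cluster, so their signals cannot be told apart.

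Inside Sfmbt2, 117 precursors were tested and all 117 had a positive difference, with a median of 1.11 and a range of 0.05 to 2.39. Elsewhere in the genome 734 of 1597 precursors were positive, with a median of -0.02, and 24 of them were higher and 8 lower (2.00%). Some precursors of the cluster have identical values in all arrays: the 117 gave 82 different value profiles, 15 of which were called. The embryo medians over the cluster were 11.38, 10.99, 11.19 and 10.76 in embryos 15 to 18 and 9.19 to 10.35 in the KSOM(aa) embryos, without overlap. With 16b left out 83 of the 117 passed, all higher. Without embryo 15, 17 or 18, 0 of the 117 passed. The median over the cluster was 0.87 in GM501 against KSOM(aa) half-embryos a and 1.30 in SAGE 1-step against half-embryos b. These baselines differ, so the medians do not compare the media with each other. These precursors were looked at after their values were seen.

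Mir669j, among the brightest of the cluster, was at 14.28, 12.91, 13.34 and 13.11 in embryos 15 to 18, against 10.10, 11.49 and 12.09 (lowest, median, highest) in KSOM(aa), a rise of 2.11 ± 0.39 (adjusted p = 0.0375). Mir466h was at 9.23, 9.31, 9.35 and 9.22, against 8.20, 8.60 and 8.81 in KSOM(aa), a rise of 0.72 ± 0.14 (adjusted p = 0.0451). Neither overlapped between the groups. The host gene overlapped: Sfmbt2 itself was at 12.38, 11.28, 12.02 and 11.71 in embryos 15 to 18, against 10.08, 11.31 and 11.95 in KSOM(aa), with a difference of 0.71 ± 0.30 that did not pass (adjusted p = 0.235; 0.91 and 0.0547 with 16b left out). Of 28 imprinted genes measured 0 passed (5 at an unadjusted p under 0.05, against 18.2% of all transcript clusters).

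**Figure D4:**
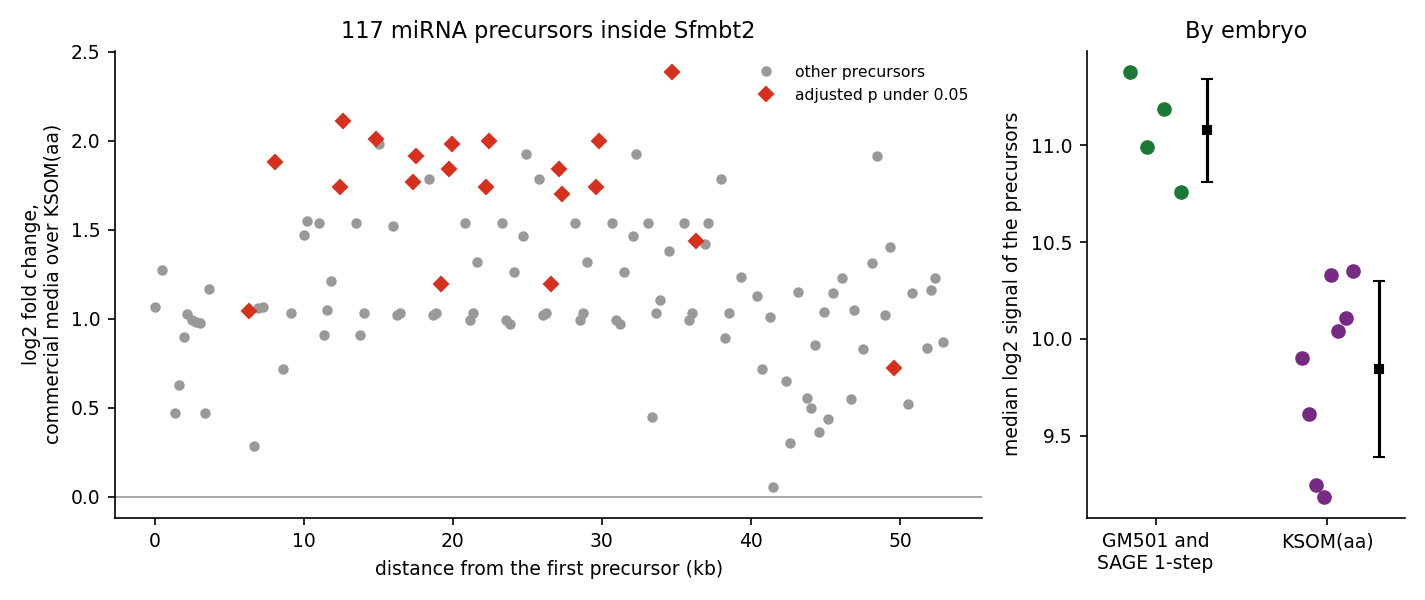
Left, log2 fold change (y axis) of the 117 microRNA precursors inside Sfmbt2 by distance from the cluster's first precursor in kb (x axis), with diamonds for the 20 past the threshold. Right, the median log2 signal of the cluster in each embryo with the mean ± SD over embryos. All points on the left are above 0, and the embryos in commercial media (10.76 to 11.38) lie above those in KSOM(aa) (9.19 to 10.35).

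A run of neighbouring mitochondrial transfer RNAs was lower. Of 17 mitochondrial transcript clusters measured 16 had a negative difference, with a median of -0.50, and 4 were lower and 0 higher. They were mt-Ta, mt-Tn, mt-Tc and mt-Ty, the transfer RNAs for alanine, asparagine, cysteine and tyrosine, which are neighbours on the minus strand of the mitochondrial genome (chrM:5018-5326). Asparagine transfer RNA, mt-Tn, was at 9.46, 10.00, 9.68 and 9.64 in embryos 15 to 18, against 10.94, 11.36 and 11.88 (lowest, median, highest) in KSOM(aa). Its fall of -1.69 ± 0.20 (limma adjusted p = 0.00442) passed in all 12 fits without 1 embryo, and its half-embryo values of 8.86 to 10.00 in commercial media excepting 16b (11.14) were below every KSOM(aa) half-embryo. Values of mt-Ta were 6.55, 7.04, 7.58 and 7.45, against 8.28, 8.93 and 10.20 in KSOM(aa) (-1.91 ± 0.37, adjusted p = 0.0429). The falls of mt-Tc and mt-Ty were 1.09 and 1.28 (adjusted p = 0.0292 each). The call of mt-Ta held in 4 of 12 fits and was lost without embryo 1, 2, 6, 7, 8, 15, 17 or 18 (adjusted p up to 0.124), and those of mt-Tc and mt-Ty held in 8 of 12 and were lost without embryo 6, 15, 17 or 18 (adjusted p up to 0.100). By contrast, mt-Rnr1, the small ribosomal RNA of the mitochondrion, had a difference of 0.03 ± 0.06. The transfer RNAs were also chosen after their values were seen.

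Called genes differed in genomic span, the distance from start to end of the transcript cluster. The 15550 detected transcript clusters of the classes labelled Coding and Multiple_Complex, most of them Multiple_Complex, were compared, and their median span was 15171 bp. The 92 that were higher had a median span of 50856 bp, and 76 of them were longer than the median. The 61 that were lower had a median span of 4470 bp, and 16 of them were longer. In 10 bins of equal size ordered by span, the median difference was -0.14 in the bin of shortest span and 0.12 in that of longest span. Higher and lower calls numbered 3 and 9 in the shortest bin and 22 and 0 in the longest. The median of the longest bin minus that of the shortest, each relative to the KSOM(aa) mean, was 0.15, 0.11, 0.43 and 0.35 in embryos 15 to 18 and -0.11 to 0.10 in the KSOM(aa) embryos, which centre on 0 by construction. The higher genes had a median log2 signal of 8.36, the lower ones 9.85 and all 7.26, and the array set was confounded with the medium. The part of signal level and array set in this pattern was not tested.

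**Figure D5:**
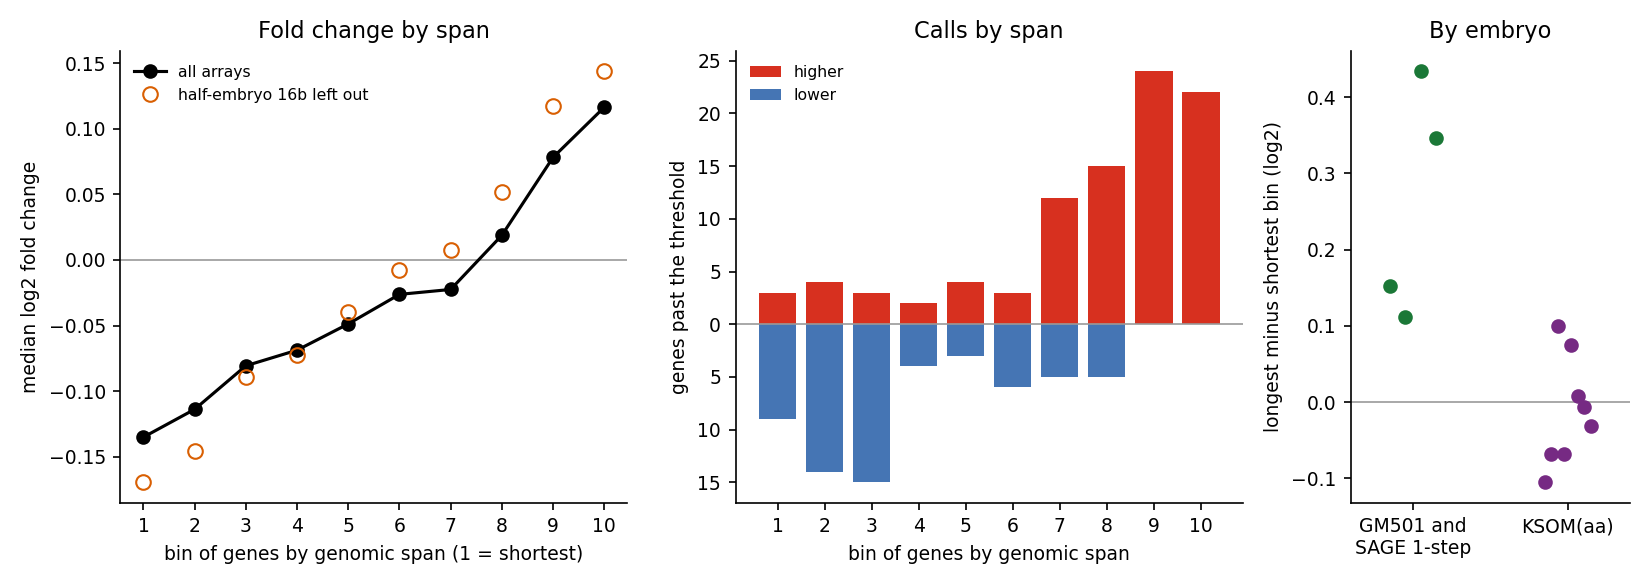
Left, median log2 fold change (y axis) in 10 bins of 15550 detected transcript clusters of the classes Coding and Multiple_Complex, ordered by genomic span (x axis), for all arrays and without 16b. Middle, numbers of higher (up) and lower (down) calls per bin. Right, the longest minus the shortest bin in each embryo. The median is -0.14 in the shortest and 0.12 in the longest bin, and all 4 commercial-media embryos (0.11 to 0.43) lie above the highest KSOM(aa) embryo (0.10).

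Pooling GM501 and SAGE 1-step rests on how the sisters compared. Within embryos 15 to 18, GM501 minus SAGE 1-step gave 0 calls among 40160 transcript clusters (limma on 4 differences) and 1649 at an unadjusted p under 0.05 (4.11%), with 6 calls when embryo 15 was left out. GM501 minus SAGE 1-step ran from -0.20 to 1.16 in the 15 largest rises, Wls among them, and from -1.0 to 0.38 in the 15 largest falls. For the markers Slc39a4 and Xbp1 the values of the single media lay close together. GM501 was set against KSOM(aa) half-embryos a and SAGE 1-step against half-embryos b. These baselines differ, so the differences from KSOM(aa) do not subtract to the within-embryo difference. Slc39a4 had differences from KSOM(aa) of -2.52 in GM501 and -2.31 in SAGE 1-step, and the within-embryo difference was 0.35 ± 0.44 (adjusted p = 0.972). Xbp1 had -1.03 and -0.90, and the within-embryo difference was 0.04 ± 0.27 (adjusted p = 0.990). For Dkkl1 the differences from KSOM(aa) were -2.20 in GM501 and -0.62 in SAGE 1-step, and GM501 minus SAGE 1-step was -1.0 ± 0.36 (adjusted p = 0.972). Against KSOM(aa) half-embryos of the same letter, 99 transcript clusters passed in GM501 (0.247%) and 2 in SAGE 1-step (0.00498%), 16b being 1 of the 4 arrays in SAGE 1-step. A missed threshold in 4 pairs does not show that the media act alike.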

How the data were processed

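Single half-embryo blastocysts were measured on MTA 1.0 arrays. The authors deposited log2 signals per transcript cluster, made with signal space transformation and RMA in Affymetrix software (Expression Console per the labels, with Transcriptome Analysis Console per the methods). In the deposited column of half-embryo 1a, 1 cell is too large for a log2 signal, and the transcript cluster concerned was left out. Because of that cell the column carries the label score, but the authors made these score values with signal space transformation and RMA before deposit. Its other cells were used as log2 signals: the median was 5.02, against 5.12 in its sister 1b, and the sisters correlated at 0.98. Values were used as deposited. Of 65955 remaining transcript clusters, 40160 had a gene symbol (36570 with 1, 3590 with several) and were tested.

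Sisters were averaged per embryo and groups compared with limma 3.58.1 in R 4.3.3 (lmFit, eBayes with trend, residual df 10, median SE 0.13), 2-sided, with Benjamini-Hochberg adjustment at 0.05. Detection required a signal over background in at least 50% of a group's arrays, for either group (23015 of those tested). GM501 and SAGE 1-step were compared by the differences between sisters. Sisters are paired by embryo, as the labels give it, and their deviations correlated at 0.16. Scripts were tested on simulated data. The number of arrays limits the precision, and p-values measure the spread between these embryos only.

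Members, gene lists and tests were chosen with earlier results of these data known. Genes named are the 3 markers, genes named in the study's text, the 15 largest rises and 15 largest falls among detected calls with 1 symbol (without predicted genes, receptors and small RNA genes), up to 4 members per list with the smallest adjusted p, and a fixed set taken from another comparison. A list gene is its brightest transcript cluster. Alternatives were other normalizations, filters, tests, covariates and sets of arrays. Leaving out 16b together with a detection filter or with median centring was chosen after seeing the data. Coordinates are mm10 (GRCm38).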

Additional observations from a re-analysis of the deposited data

Results flagged for a closer look

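Values that stood far from the rest of their group by Dixon's test were looked for in 276 groups of 4 or 8 values, and 14 were found. Chance alone gives about 5% of groups. In commercial media embryo 16 was the lowest of the 4 embryos in Hprt (14.27), Tmx3 (9.83), Actr1a (12.01) and Mir5105 (12.90), and half-embryo 16b had the highest background of the SAGE 1-step arrays (5.30). Mir5105, a short non-coding transcript cluster whose other 3 embryos were at 14.57 to 14.84 and whose KSOM(aa) embryos were at 10.63 to 12.15, passed in all 12 fits without 1 embryo (2.94 ± 0.35, limma adjusted p = 0.00442). Slc30a5 was highest in embryo 17 (9.97).

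In KSOM(aa) the value far from the others was the highest in embryo 4 for Fndc3c1 (6.02) and Ftl1 (16.16), in embryo 6 for Senp2 (9.22), in embryo 3 for Pdgfra (8.55) and in embryo 1 for Mir6352 (5.80). It was the lowest in embryo 8 for Dnajb11 (10.63), in embryo 7 for Capn2 (7.96) and in embryo 4 for mt-Rnr1 (18.23).

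Transcript clusters without a gene symbol were outside the comparison. Of 25795, 269 passed in the same fit (1.04%), 222 higher and 47 lower in the commercial media.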

How the results depend on the processing

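The count of 295 calls moved with half-embryo 16b, with scaling and with the choice of embryos. It was 3690 without 16b, 1437 without 16b over detected transcript clusters only, 1123 without 16b after centring arrays on their median (these 2 added after seeing the data), 1493 with robust array weights, 81 after centring alone, 814 after scaling to Actb, Gapdh and Hprt, 518 over all transcript clusters, 99 in GM501 alone, 2 in SAGE 1-step alone, 16 against KSOM(aa) embryos 1 to 5, 75 with Xist as a covariate and 95 by an analysis of variance, the test the methods name. It was 863 when half-embryos were fitted singly with a replicate block for their embryo. Leaving out 1 embryo gave 15 (embryo 15) to 1454 (embryo 16). The counts with quantile normalization (311), detected transcript clusters only (362), no sex chromosomes (295) and no variance trend (392) stayed within 1.5 times. The calls themselves changed more: 222 of the 295 were shared with quantile normalization and 267 with no variance trend. The filters, which take some transcript clusters out of the test, shared 249 (detected only) and 274 (no sex chromosomes).

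The share of higher among the calls was 53.2%, against 67.9% after centring and 94.2% after reference scaling, which moved the median of all transcript clusters to 0.11. The split was 324 higher and 539 lower with the block.

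Of the gene lists' 12 calls, the 12 settings from leaving out 16b to the analysis of variance gave, in that order, 77, 55, 40, 45, 4, 32, 12, 6, 0, 2, 5 and 4, and 32 with the block. Leaving out 1 embryo gave 0 (embryo 15) to 42 (embryo 16). GM501 against SAGE 1-step gave 0 to 6 calls on leaving out 1 embryo, 6 without embryo 15, and 0 without the replicate block.

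Over 133 named genes, 3849 values were compared. None reversed among calls, 3019 kept direction and side of the threshold, 585 kept direction but no longer passed, 197 newly passed, and 48 changed sign without passing in either. The causes were not tested. With 4 embryos against 8, a median SE of 0.13 and 1 array set per group, differences of small size and any effect of the array set cannot be resolved.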
